A study of Homo sapiens with 2 samples.

Results

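NEAT1 and MALAT1 are long noncoding RNAs that stay in the nucleus. Their peaks in SpyCLIP-seq of PQBP1 are described here for HEY cells, a human ovarian cancer line. Both RNAs were chosen by the large number of reads that an earlier look at the same peak list had given them, so every read value below is a description and carries no test. All peaks assigned to the gene names NEAT1 or MALAT1 were kept, which gave 15 of the 1489 peaks of the list and 2 of its 718 genes. The cells overexpressed PQBP1 carrying FLAG and Spy tags, received ultraviolet light at 400 mJ per cm2, and gave 1 Input library without antibody and 1 IP library from the FLAG pull-down of nuclear lysate. PQBP1 is a splicing factor of the spliceosome. The overexpressed protein was the one pulled down, so the profile is that of the tagged protein and not of the PQBP1 that HEY cells make themselves. Only peaks of the IP library were analysed here, and whether their reads exceed those of the Input library was not tested. With 1 IP library there is no replicate, no value has a biological error, and the intervals given cover counting error only.

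NEAT1 is the scaffold of paraspeckles, nuclear bodies that hold RNA-binding proteins such as SFPQ and NONO. It is made as a short RNA with a poly(A) tail and as a long RNA that starts at the same place, and the long form is the one that builds the body. MALAT1 lies next to it on chromosome 11, is also largely unspliced, and gathers at nuclear speckles, the bodies rich in splicing factors. The long form of NEAT1 and MALAT1 share an unusual 3′ end. It is cut by RNase P in place of being polyadenylated, and U-rich and A-rich stretches fold together to protect it.

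The letters of these ends are shown because they are what the RNAs share outside the peak list. The windows are 120 nt long, written as DNA 5′ to 3′ from the longest GENCODE release 44 transcripts. For NEAT1 this is nt 22624 to 22743, the very end of the RNA. For MALAT1 it is nt 8358 to 8477 of 10434, which is where the same closing letters occur last in that transcript. Capitals mark the closing A-rich run of 11 nt that both windows hold and the longest other run they share, a U-rich run of 16 nt. Shorter shared runs are not marked.
NEAT1: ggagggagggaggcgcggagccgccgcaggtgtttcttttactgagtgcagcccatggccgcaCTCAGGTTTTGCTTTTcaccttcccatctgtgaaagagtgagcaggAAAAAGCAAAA
MALAT1: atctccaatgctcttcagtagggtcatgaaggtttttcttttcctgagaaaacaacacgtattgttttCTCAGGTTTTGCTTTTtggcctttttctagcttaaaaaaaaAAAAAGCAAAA

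Between the runs lay 30 nt in NEAT1 and 25 nt in MALAT1. The U-rich run, CTCAGGTTTTGCTTTT, occurred in the last 120 nt of 2 of 56313 long noncoding RNA transcripts (0.00355%), and these were 1 of the 9 NEAT1 and 1 of the 66 MALAT1 transcripts. The A-rich run, AAAAAGCAAAA, occurred there in 47 (0.0835%), among them 1 of the 9 NEAT1 and 0 of the 66 MALAT1 transcripts. The long NEAT1 transcript was the single one that ended with it. The transcripts were searched on their own strand. Because the runs were picked for being held by both windows, these counts are no test of how unusual the ends are. The windows were taken by gene name and not by position, and whether a peak covers them was not determined, since the list is not placed on the assembly that the transcripts belong to.

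Positions are those of the list, with starts shifted from counting from 0 to counting from 1, on chromosome 11 and the plus strand of the gene models. The methods and labels name hg38, but 0 of the 15 peaks touched the GRCh38 span that RefSeq gives their gene, and the build is not named in the list. Each peak is a run of 200-nt bins. Its read value is the mean number of reads per bin, not scaled to sequencing depth, and the value times the number of bins was taken as its total reads. All 15 peaks were classed as exon, the NEAT1 peaks on NR_131012.1 and the MALAT1 peaks on NR_144567.1. The strand comes from the annotation. Reads from MALAT1 and from TALAM1, a transcript of the opposite strand, therefore cannot be told apart.

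NEAT1 had the most reads in peaks of any gene in the list, while by its highest peak it ranked 15 and by reads per covered bin 16. Its 8 peaks held 6861 reads (exact Poisson 95% interval 6700 to 7025), which was 17.2% of the 39952 reads in peaks (Wilson 95% interval 16.8 to 17.5). These peaks were 0.537% of all peaks and took up 5.26% of all bins. MALAT1 was the second gene, with 1924 reads (1839 to 2012) in 7 peaks, or 4.82% of reads (4.61 to 5.03) in 1.07% of bins. Together the RNAs held 22.0% of the reads in 1.01% of the peaks, and 82.7% of the 10620 reads that lay in the 132 peaks of chromosome 11. NEAT1 alone had 5.10 times the reads of the next gene after MALAT1.

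NEAT1 was covered almost from end to end. From the start of the first peak to the end of the last, the footprint was 22600 nt, against 22743 nt for the long NEAT1 transcript, which is a single exon. The footprint was thus 143 nt shorter than the RNA, or 99.4% of its length. Within it, peaks covered 20600 nt (91.2%). The remaining 2000 nt lay in 7 gaps. Of these, 5 were 1 bin wide, and the others were 400 nt after the first peak and 600 nt before the seventh. A gap says only that its bins did not pass the limit of the peak caller, which left no value under 6 reads per bin in the list.

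The NEAT1 peaks are described from the 5′ end. The first, from 65190201 to 65192200, was 2000 nt wide and had 34.6 reads per bin (31.0 to 38.4). The second, from 65192601 to 65196400, was 3800 nt wide and the highest of this RNA, with 91.8 reads per bin (87.6 to 96.3). It lay 2.65 times above the first peak (exact conditional 95% interval 2.36 to 2.99). The third, from 65196601 to 65197000, was the narrowest and lowest, with 400 nt and 31 reads per bin (23.8 to 39.7). The intervals of the first and the third peak overlap.

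Further along, the fourth peak, from 65197201 to 65199200, had 62.5 reads per bin (57.7 to 67.6) over 2000 nt. The fifth, from 65199401 to 65206600, was the widest peak of the whole list, 7200 nt or 36 bins, and had 78.2 reads per bin (75.3 to 81.1). This peak alone held 2814 reads, 41.0% of those on NEAT1. The peaks after the fifth were lower than it, but higher than the first and the third. The sixth peak, from 65206801 to 65208800, had 45.3 reads per bin (41.2 to 49.7). The seventh, from 65209401 to 65210800, had 58.4 (52.9 to 64.4). The eighth, from 65211001 to 65212800, had 45.2 (40.9 to 49.8). The intervals of the sixth and eighth peaks overlap almost entirely.

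**Figure D1:**
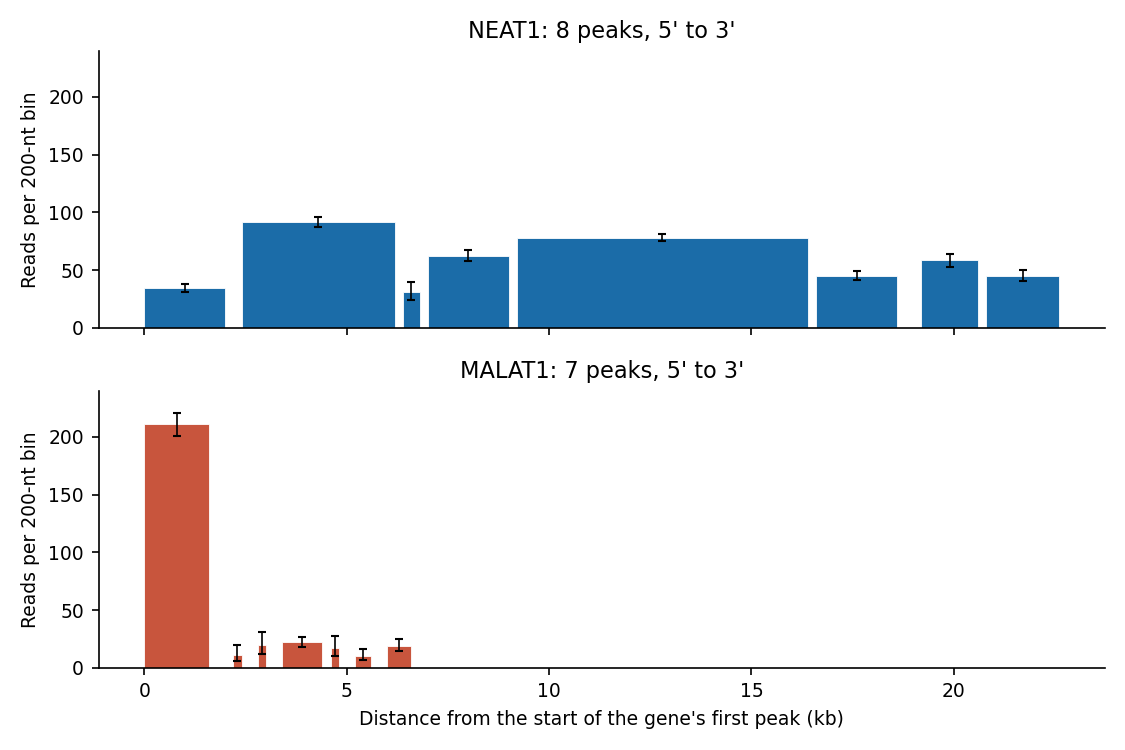
Peaks of NEAT1 (top) and MALAT1 (bottom) along their RNAs. The x axis is the distance in kb from the start of each gene's first peak, the bar width is the peak width, the y axis is reads per 200-nt bin, and the whiskers are exact Poisson 95% intervals. NEAT1 carries 8 mostly wide peaks between 31 and 91.8 reads per bin over 22600 nt, whereas MALAT1 has 1 peak of 210.75 and then 6 peaks of 22.2 or less.

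The heights of the 8 NEAT1 peaks differed by 2.96 times from lowest to highest. The second and the fifth peak together held 4559 reads, 66.4% of the reads in 53.4% of the covered bins. The other 6 peaks averaged 48.0 reads per bin. Taking each peak as level along its length, the first 11300 nt of the footprint held 52.5% of the reads with 69.9 reads per covered bin, and the last 11300 nt had 63.3.

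The larger part of the reads lay on the stretch that only the long NEAT1 RNA contains, which is also the larger part of that RNA. All other annotated NEAT1 transcripts end by nt 3716 of the long one. If each peak touches the long RNA by at least 1 nt, the footprint starts between -1999 and 1942 nt from the 5′ end. If each bin does so, it starts between -199 and 342 nt. Under either limit the third to eighth peaks began beyond nt 3716, at the earliest at nt 4401 or nt 6201. These 6 peaks held 4770 reads, 69.5% of the reads on NEAT1 (Wilson 95% interval 68.4 to 70.6), in 74 of its 103 covered bins. They averaged 64.5 reads per bin, against 66.6 over all NEAT1 peaks. That stretch makes up 19027 nt, or 83.7%, of the long RNA. The 69.5% leaves out any reads of the second peak that lay beyond nt 3716. The share of reads and the share of length therefore do not cover the same stretch, and neither can be called the larger. A preference for the long form was not tested. The first and the second peak were not assigned to either stretch, since the limit by peaks leaves open how they lie relative to nt 3716. Under the limit by bins the first peak lay before nt 3716 and the second reached across it. This placement rests on the length of the transcript, whose accession is the same in the list and in RefSeq, and not on a conversion of positions. It assumes that the build of the list holds NEAT1 at that length. How many copies of each form the cells contained was not measured.

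MALAT1 looked different. Its first peak, from 65266601 to 65268200, was 1600 nt wide and had 210.75 reads per bin (200.8 to 221.1). It held 1686 reads, or 87.6% of the reads on MALAT1 (86.1 to 89.0), in 38.1% of the covered bins. All 6 later peaks together held 238 reads, 18.3 per bin (16.1 to 20.8). The first peak was thus 11.5 times higher than the average of the rest (10.04 to 13.2).

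The later MALAT1 peaks were short and low. The second, from 65268801 to 65269000, had 11 reads in 1 bin (5.49 to 19.7). The third, from 65269401 to 65269600, had 20 (12.2 to 30.9), and the fifth, from 65271201 to 65271400, had 17 (9.90 to 27.2), also in 1 bin each. The intervals of these 1-bin peaks overlap. The fourth, from 65270001 to 65271000, was the widest of the later ones, with 22.2 reads per bin (18.3 to 26.7) over 1000 nt. The sixth, from 65271801 to 65272200, had 10.5 reads per bin (6.50 to 16.1), the lowest on either RNA. The seventh, from 65272601 to 65273200, had 19.3 (14.7 to 25.0).

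The MALAT1 footprint was 6600 nt, and peaks covered 4200 nt of it (63.6%). The other 2400 nt lay in 6 gaps of 200 to 600 nt, with 600 nt directly after the high first peak and 1 gap of a single bin. RefSeq gives MALAT1 a gene length of 8779 nt, so 2179 nt more than the footprint, and where along the RNA the footprint starts was not determined. The first 3300 nt of the footprint held 89.2% of the reads, 171.7 per covered bin, and the last 3300 nt had 18.8 per covered bin. Both parts were covered to a similar extent, 60.6% and 66.7%. The parts therefore differed in height, with the high first peak in the first part, and hardly in the number of bins that passed the limit. The later peaks showed no steady fall in height.

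**Figure D2:**
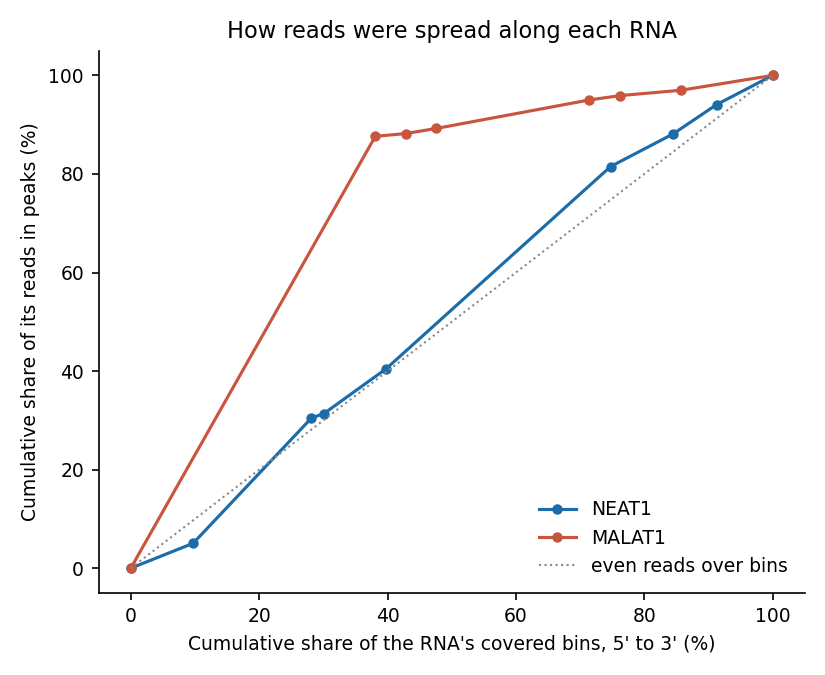
Cumulative share of reads (y axis, %) against cumulative share of covered bins (x axis, %), read 5′ to 3′, with 1 point per peak. MALAT1 reaches 87.6% of its reads after its first peak, 38.1% of its bins, while NEAT1 stays near the dotted line of evenly spread reads.

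Which RNA carried more signal depended on the measure. Over all covered bins NEAT1 had 66.6 reads per bin (65.0 to 68.2) and MALAT1 91.6 (87.6 to 95.8), so NEAT1 was at 0.727 times MALAT1 (exact conditional 95% interval 0.691 to 0.765). The highest MALAT1 peak was 2.29 times the highest NEAT1 peak (2.14 to 2.45). The median peak pointed the other way, with 51.9 reads per bin on NEAT1 and 19.3 on MALAT1. Without the high first peak of MALAT1, NEAT1 was 3.64 times higher (3.20 to 4.16). Each of the 8 NEAT1 peaks was higher than all MALAT1 peaks but that one. With gap bins set to 0 reads, the averages over the footprints were 60.7 for NEAT1 and 58.3 for MALAT1. The levels are per 200 nt and not corrected for how much of each RNA was present, which was not analysed here.

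Widths differed as well. The median NEAT1 peak was 2000 nt wide (range 400 to 7200) and the median MALAT1 peak 400 nt (200 to 1600). All NEAT1 peaks joined 2 bins or more, whereas 3 of the 7 MALAT1 peaks were 1 bin. Peaks of at least 5 bins made up 2.01% of the list (30 of 1489). They were 7 of 8 on NEAT1 and 2 of 7 on MALAT1. Peaks with at least 20 reads per bin made up 9.07% of the list, and all 8 NEAT1 peaks but 3 of 7 MALAT1 peaks reached this value. Since the RNAs were chosen by their reads, these shares describe the members and are no result about them.

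Wide peaks elsewhere in the list were lower. The other 21 peaks of at least 5 bins had a median of 18.4 reads per bin (range 14.8 to 40.6, the highest on MAP1B, a microtubule-associated protein gene). Of the 9 such peaks on NEAT1 and MALAT1, 7 lay above that range, and the exceptions were the first NEAT1 peak and the fourth MALAT1 peak. These 9 peaks held 73.6% of the reads in wide peaks of that kind. By contrast, the later MALAT1 peaks had 10.5 to 22.2 reads per bin and lay among the other peaks, whose list-wide median was 11 (quartiles 9 and 14).

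**Figure D3:**
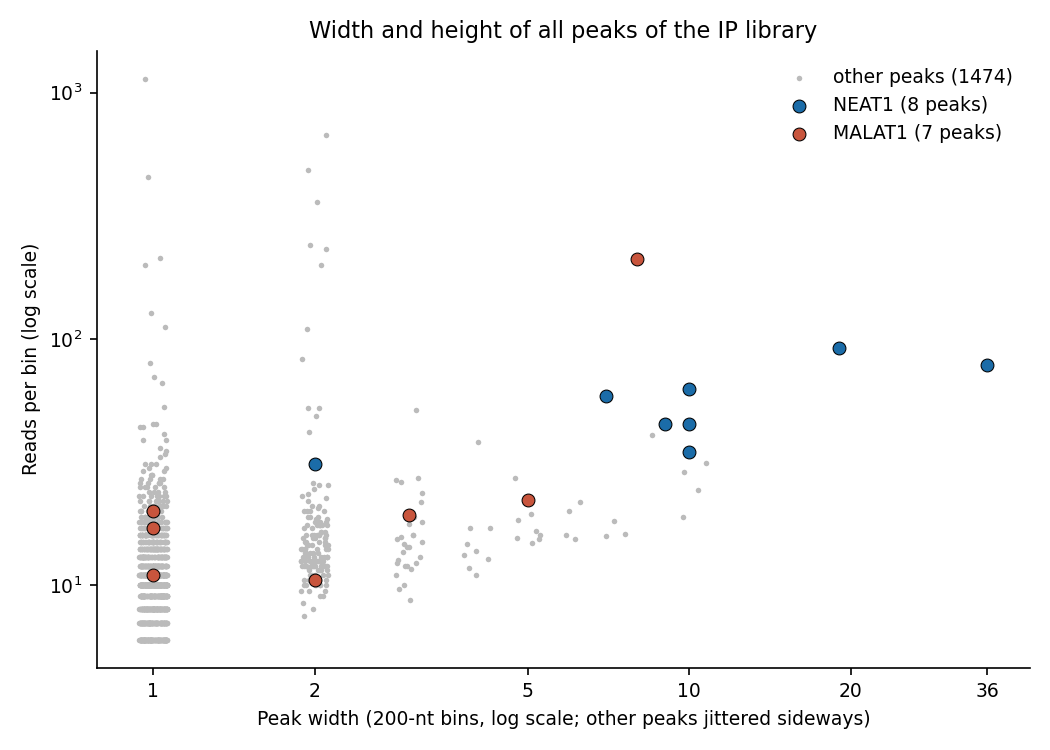
Width in 200-nt bins (x axis, log scale) and reads per bin (y axis, log scale) of all 1489 peaks, with NEAT1 in blue and MALAT1 in red. The NEAT1 peaks of 7 to 36 bins lie at 34.6 to 91.8 reads per bin, the first MALAT1 peak lies above them at 8 bins and 210.75, and the other MALAT1 peaks lie among the grey ones.

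The p-values of the peak caller did not always follow height. They are the authors' own values, and it is not stated whether they are adjusted. On NEAT1 they ranged from 5.19e-12 for the eighth peak to 0.021 for the third. The fifth peak, the widest of the list, had only 0.00124, rank 885 of 1489, although it ranked 18 by reads per bin. On MALAT1, where the highest peak had the smallest and the lowest peak the largest p-value, the first peak had 5.19e-12, the third 1.94e-07 and the sixth 0.004. In all, 35.5% of the peaks of the list had a p-value of at most 1e-05, against 6 of 8 on NEAT1 and 3 of 7 on MALAT1.

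Neighbouring peaks were close on both RNAs. All 7 NEAT1 gaps and all 6 MALAT1 gaps were 600 nt or less, whereas 33% of the 770 gaps between neighbouring peaks of 1 gene were that short. Most genes of the list contain introns, and both RNAs are single exons in their longest annotated form, so the gaps are not measured on the same kind of gene. The space between the last NEAT1 and the first MALAT1 peak was 53800 nt and held 0 peaks. The nearest peak on the far side of NEAT1 was 522000 nt away, on ATG2A, and the nearest beyond MALAT1 was 33200 nt away, on LTBP3. LTBP3, a gene of the extracellular matrix, was the single one of 7 genes near the locus with a peak. It had 11 peaks of 6 to 18.5 reads per bin and 157 reads in all.

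The next 5 genes by reads were of 2 kinds. RMRP, the RNA of RNase MRP, had 1346 reads in 2 bins, RN7SK, which restrains transcription elongation, had 1138 in 1 bin, and RPPH1, the RNA of RNase P, had 967 in 2 bins. These short RNAs had 483.5 to 1138 reads per bin, above each NEAT1 and MALAT1 peak. The messenger RNAs SRRM2 and PLEC reached their totals by width. SRRM2, which codes for a scaffold protein of nuclear speckles, had 920 reads in 38 bins, or 24.2 per bin (22.7 to 25.8). PLEC, which codes for the cytoskeletal linker plectin, had 866 reads in 53 bins, or 16.3 (15.3 to 17.5). Its footprint of 22400 nt was about as long as that of NEAT1, and peaks covered 47.3% of it. A footprint is a distance on the genome that includes any introns, and the long NEAT1 RNA has none. The coverages are therefore not measured on the same kind of gene. Among the 10 other genes with at least 20 covered bins, reads per covered bin ran from 12.7 to 26.6, which was below NEAT1 and MALAT1.

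**Figure D4:**
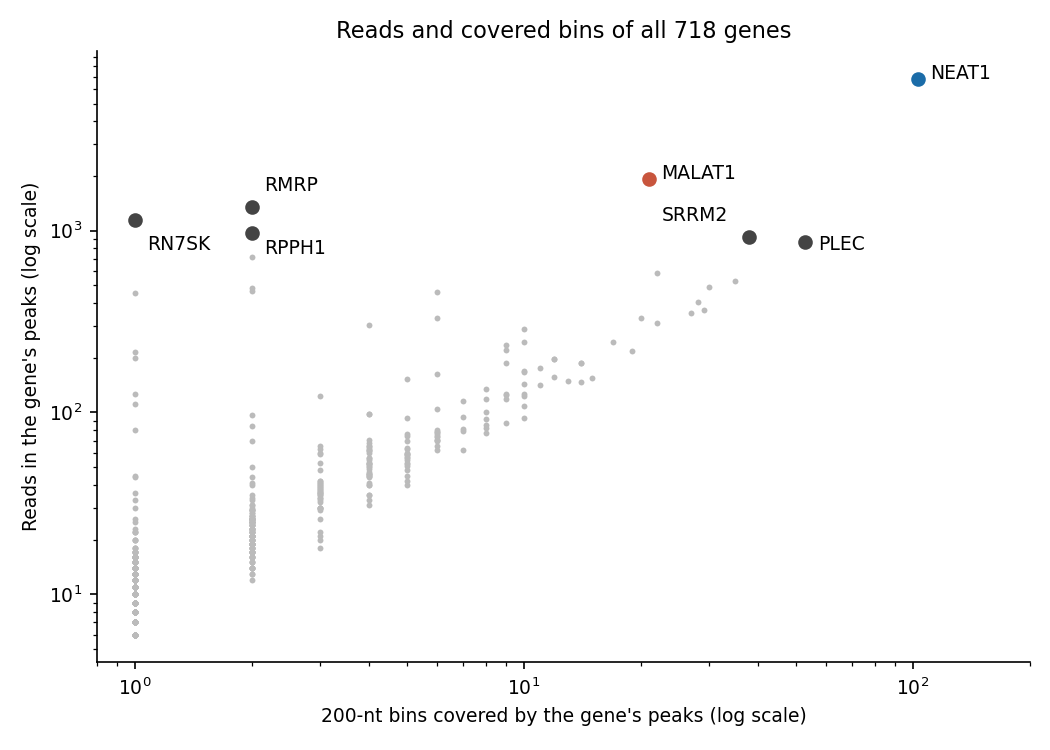
Reads in peaks (y axis, log scale) against the number of 200-nt bins covered by peaks (x axis, log scale) for all 718 genes, with NEAT1, MALAT1 and the next 5 genes by reads named. NEAT1 is at the upper right with 6861 reads in 103 bins and MALAT1 at 1924 in 21 bins, while RMRP, RN7SK and RPPH1 reach high totals in 1 or 2 bins.

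Other long noncoding RNAs held few of the reads in peaks. The 22 others that the list types as such had 30 peaks and 553 reads, 1.38% of all reads. Their median was 12.5 reads per bin (range 6 to 80), against 11 over the whole list. Of the 30 peaks, 25 were 1 bin, close to the 84.9% of 1-bin peaks in the whole list, and none was wider than 400 nt. Of 12 well-known long noncoding RNAs, among them TUG1, GAS5 and NORAD, only KCNQ1OT1, the antisense RNA of an imprinted locus, had a peak. It had 3 peaks and 40 reads, at 7 to 12 reads per bin. For comparison, 0.131% of the 18330 long noncoding RNA genes of RefSeq are named in the list. A missing peak says only that no bin passed the limit in this list, which names fewer genes than the study counts as bound by PQBP1.

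The messenger RNAs of the proteins that live in the same bodies were also looked up. Of 15 paraspeckle protein genes, 7 had a peak, and of 15 nuclear speckle protein genes, 8 had one, while 3.25% of the 20052 protein-coding genes of RefSeq are named in the list. Genes that are not transcribed in HEY cells are part of that background, so the shares cannot be read as a preference. The paraspeckle genes with the most reads were NONO and SFPQ, which code for the paired RNA-binding proteins of the body, with 42 reads each in 2 peaks. DAZAP1, EWSR1, HNRNPA1 and PSPC1 had 1 intron peak each, of 6 to 9 reads. In the speckle list SRRM2 led with 920 reads, followed by LUC7L3, a U1-associated splicing factor gene, with 123 reads and SRSF11, a serine and arginine rich splicing factor gene, with 78. Apart from SRRM2, each of these genes had fewer reads than every NEAT1 peak but the third.

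In base composition the RNAs were alike and unremarkable. The long NEAT1 transcript had a GC content of 44.1% and the longest MALAT1 transcript 42.0%, both within the quartiles of 18824 long noncoding RNA genes (41.2% and 51.5%, median 46.0%). NEAT1 was richer in T (31.7%) than in A (24.2%), whereas MALAT1 had 29.0% of each. In length they were far from typical. The median of the longest transcripts of these genes was 923 nt, and NEAT1 ranked 11 and MALAT1 46 among all 18824. A long RNA offers more bins, and how far length, abundance or binding set the totals was not tested.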

How the data were processed

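The IP peak list of 1 PQBP1 SpyCLIP-seq library was analysed, with 1 Input library in the series whose values were not used here. Per the methods and labels, the authors trimmed reads with Trimmomatic, removed ribosomal reads, aligned with TopHat (TopHat2 2.0.13 in the submitters' processing notes), and used Piranha for peak calling and HOMER for annotation. The build named is hg38, which the positions contradict. Each peak has a deposited signal, read here as the coverage in mean reads per 200-nt bin. Multiplied by the bins of a peak it was whole within 0.01 in all 1489 peaks. The p-value per peak is deposited as the peak caller gave it. Other columns (gene name, region class, strand) were used as given. Sequencing depth is unknown, and how paired mates, multiply mapped reads and Input entered the calling is not given in the sources used here.

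Totals, gaps and ranks were computed in Python 3.11.15 with pandas 2.3.3, and intervals (Wilson for shares, exact Poisson for reads, exact conditional for ratios, all 95%) with SciPy 1.17.1. The interval code was tested on simulated data. Without molecular identifiers, reads may be copies of 1 molecule. No test was run, because the members were chosen with earlier results of these data known, as were the gene lists. Transcripts came from GENCODE release 44 and RefSeq by name. Named genes were the members, the 5 other genes with the most reads, and lists of 15 paraspeckle, 15 speckle, 12 long noncoding RNA and 7 neighbouring genes, of which up to 5 with a peak, or else the 3 with the most reads, were given. ATG2A, MAP1B and the other paraspeckle genes with 1 intron peak were added after their values were seen. A withheld item of these lists is not reported here.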

Additional observations from a re-analysis of the deposited data

How the results depend on the processing

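A p-value limit of 1e-05 left 9 of the 15 peaks and 3 of 7 on MALAT1. Joining peaks up to 200 nt apart gave 9 peaks in all and 3 on NEAT1, and up to 400 nt gave 4 in all, 2 on each RNA. The share of reads on NEAT1 (17.2%) was 19.4% without the 5 highest peaks of the list, 19.0% with at least 10 reads per bin, 13.1% at a p-value limit of 0.001, 10.9% without its widest peak and 1.93% when reads per bin were summed without regard to width. For MALAT1 (4.82%) the same settings gave 5.45%, 5.32%, 6.23%, 0.622% and 1.34%. The log2 ratio of NEAT1 to MALAT1 in reads per bin (-0.46) was -1.20 for the highest peaks. It turned to 1.42 for the median peak, 1.72 without the widest peaks, 0.059 per kb of footprint and 0.71 per kb of the longest transcript, and, in settings chosen after seeing the data, to 1.73 without the highest peaks and 1.86 without that of MALAT1 alone. Coverage of the NEAT1 footprint rose from 91.2% to 95.6% with peaks 200 nt apart joined, and that of MALAT1 fell from 63.6% to 40.3% over the longest transcript. NEAT1 and MALAT1 ranked 1 and 2 by reads, 15 and 9 by highest peak, 22 and 31 by number of peaks, and 16 and 12 by reads per covered bin. GC content was the same for the canonical transcripts, which are the longest ones. A ratio over 1-bin peaks could not be given, since NEAT1 has 0 of them. No paired analysis was possible because the series holds 1 IP and 1 Input library. The later MALAT1 peaks rest on few reads, 10.5 to 22.2 per bin.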
